A study of Rattus norvegicus with 4 samples.

Results

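Genes that copy DNA and supply its building blocks were followed in rat mesenchymal stem cells, a stromal cell population of bone. They comprise subunits and regulators of the replication machinery, enzymes of deoxynucleotide synthesis, and both E cyclins. The 43 genes were listed by symbol, and the 42 with at least 40 counts over the 4 libraries are described here, out of 34034 genes listed and 12228 that reached the same minimum. The excluded gene was Rrm2, with 36 counts, and the members just inside the minimum were Orc1 with 62, Pole with 79 and Pole2 with 91. The cells came from femurs, were grown in osteogenic induction medium, and were treated for 24 h, up to collection on day 1. The study has 4 groups of 1 library. They are senescent cells with TSA plus phenamil (a derivative of the diuretic amiloride), senescent cells with TSA, senescent cells with vehicle (senescent control), and young cells with vehicle (young control). TSA, or trichostatin A, blocks histone deacetylases. No library held phenamil alone, and the series' design text names benzyl ether where the sample labels name phenamil. How the cells became senescent, the doses, the strain and age, and the number of animals are not stated in the labels or the design text.

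Replication starts at origins that the origin recognition complex marks in G1 phase, where CDC6 and CDT1 load the ring-shaped MCM helicase. CDC45 and the GINS complex switch the helicase on as S phase begins, a step that cyclin E with its kinase CDK2 promotes. Polymerases then copy both strands, held to the template by the sliding clamp PCNA, while ribonucleotide reductase, thymidylate synthase and thymidine kinase feed the deoxynucleotide pool. E2F transcription factors, which retinoblastoma family proteins hold in check in resting and senescent cells, drive many of these genes at the entry to S phase.

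Promoters are shown for 4 genes because they carry a motif that was more frequent in the members' promoters than in all promoters, and because Mcm5, Mcm6 and Tyms were also higher in the TSA library than in the senescent control. Each runs 5′ to 3′ on the gene's own strand from 250 bases before to 50 bases after the annotated start, and comes from RefSeq with the build GRCr8. Capitals mark matches to an E2F-type motif. Gins2, Pcna and Dut, also higher with TSA than in the senescent control, had no such match. Ccne2, higher there too, had no promoter in the RefSeq table. The Mcm5 promoter lies at chr19:13488563-13488862 on the plus strand, that of Mcm6 at chr13:42404303-42404602 on the minus strand, that of Mcm2 at chr4:122918045-122918344 on the minus strand and that of Tyms at chr9:120776034-120776333 on the minus strand.
Mcm5: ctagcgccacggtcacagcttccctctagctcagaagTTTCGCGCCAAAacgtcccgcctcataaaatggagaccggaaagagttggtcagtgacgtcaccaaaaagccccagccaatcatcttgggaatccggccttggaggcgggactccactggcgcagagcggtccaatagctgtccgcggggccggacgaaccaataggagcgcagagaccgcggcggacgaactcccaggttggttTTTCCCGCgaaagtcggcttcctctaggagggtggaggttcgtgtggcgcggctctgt
Mcm6: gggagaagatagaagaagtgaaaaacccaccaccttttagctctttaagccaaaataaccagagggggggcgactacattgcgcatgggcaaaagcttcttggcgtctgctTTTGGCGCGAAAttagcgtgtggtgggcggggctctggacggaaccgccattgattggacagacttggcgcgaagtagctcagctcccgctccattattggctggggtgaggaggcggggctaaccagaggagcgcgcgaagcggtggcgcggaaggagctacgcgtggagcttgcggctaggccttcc
Mcm2: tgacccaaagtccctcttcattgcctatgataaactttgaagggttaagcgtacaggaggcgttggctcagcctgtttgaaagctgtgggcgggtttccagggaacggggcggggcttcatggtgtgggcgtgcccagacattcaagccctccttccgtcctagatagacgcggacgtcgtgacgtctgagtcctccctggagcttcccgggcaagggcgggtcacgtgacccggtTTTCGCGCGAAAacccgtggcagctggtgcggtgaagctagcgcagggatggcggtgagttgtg
Tyms: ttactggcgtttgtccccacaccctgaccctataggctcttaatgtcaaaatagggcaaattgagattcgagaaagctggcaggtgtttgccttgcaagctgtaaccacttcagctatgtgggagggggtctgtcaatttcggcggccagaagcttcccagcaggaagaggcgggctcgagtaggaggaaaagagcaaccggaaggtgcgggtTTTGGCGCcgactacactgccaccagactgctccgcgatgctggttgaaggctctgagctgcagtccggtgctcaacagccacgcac

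Of the 42 members, 36 had a promoter in the RefSeq table. An E2F-type motif, taken as TTTCCCGC, TTTCGCGC, TTTGGCGC or TTTGCCGC on either strand, was present in 16 of these 36 (44.4%). Of all 27457 promoters of the same length, 2.25% held one, and of the 9856 that belong to genes with at least 40 counts 4.18% did. Members with 2 or more matches numbered 8 (22.2%), against 0.0874% of all promoters. All 5 helicase subunit genes in the table held at least 2 matches, namely Mcm2, Mcm3, Mcm5, Mcm6 and Mcm7. Matches may overlap each other, and the 25 matches joined into 21 separate stretches. Mcm2, Mcm5, Mcm6 and Gins1 each held an overlapping pair, as in the Mcm2 promoter printed above, where TTTCGCGC and its reverse complement share bases. Of the 25 matches, 19 began within 100 bases of the gene's start. The members' median GC content was 59.7%, against 52.3% in all promoters and 61.0% in those of genes with enough counts.

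**Figure D1:**
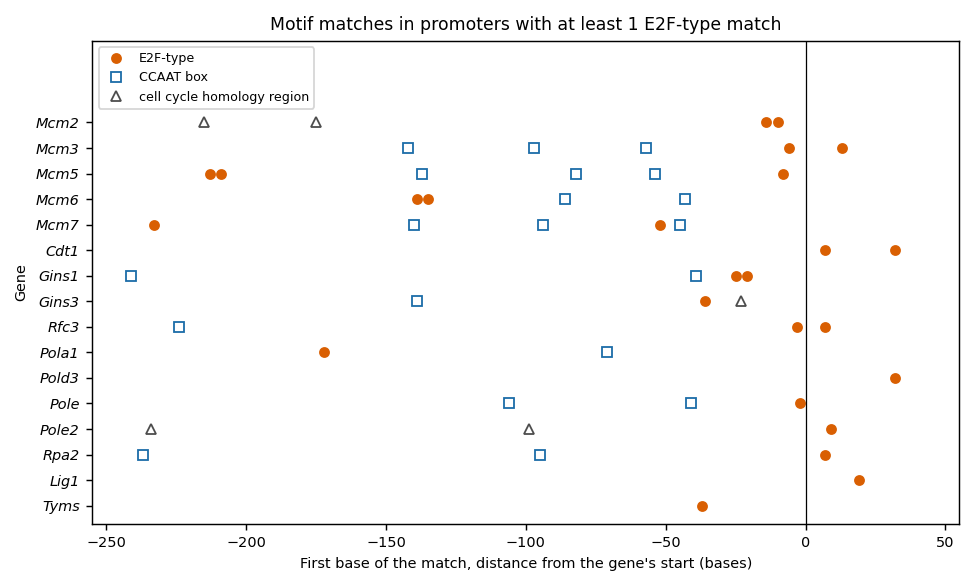
Position of motif matches (first base, in bases from the gene's start) in the 16 member promoters with an E2F-type match, 1 row per gene. E2F-type matches (filled circles) lie mostly within 100 bases of the start, the CCAAT boxes (open squares) lie upstream, and triangles mark the cell cycle homology region.

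The CCAAT box (CCAAT on either strand) was found in 21 of 36 member promoters (58.3%), against 37.7% of all promoters and 38.0% of those of genes with enough counts. The cell cycle homology region (TTTGAA on either strand) was found in 3 of 36 (8.33%), against 18.1% of all and 11.7% of those of genes with enough counts. The promoters of 21 mitosis genes had the other arrangement: 1 held an E2F-type motif (4.76%), while 15 held the homology region (71.4%) and 16 a CCAAT box (76.2%). Among other genes of replication, an E2F-type match was found in 6 of 12 further licensing and firing genes and in 6 of 15 further fork genes, but in 2 of 31 further nucleotide synthesis genes. These are matches of letters in a fixed window and do not show that a factor binds.

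**Figure D2:**
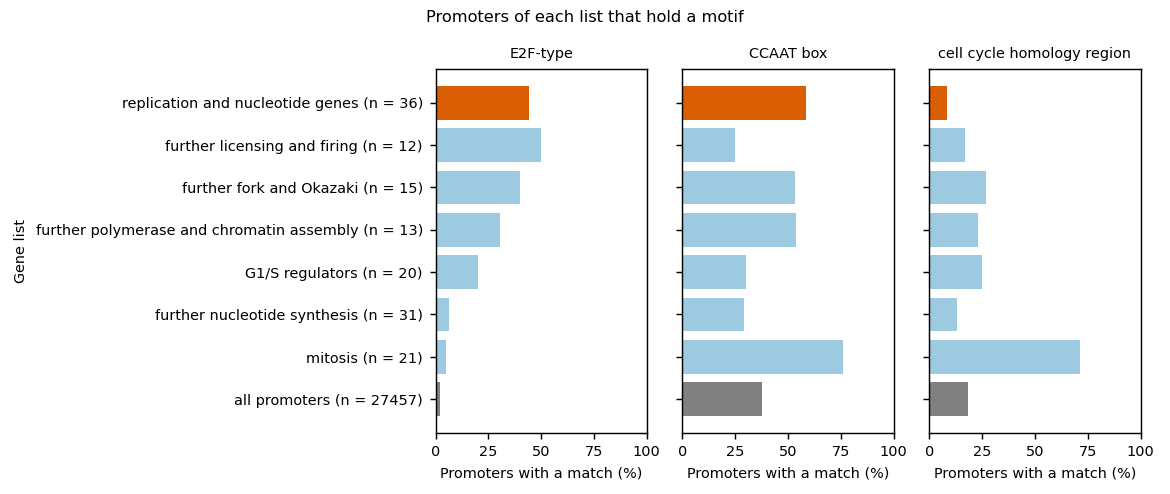
Percent of promoters in each gene list with an E2F-type motif, a CCAAT box or a cell cycle homology region; n is the number of promoters. The E2F-type share was 44.4% for the replication and nucleotide genes, 4.76% for mitosis genes and 2.25% for all promoters.

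Expression was read from the ends of polyadenylated transcripts with a 3′ tag kit. Levels are CPM, counts relative to the scaled size of the library, and are not divided by gene length. Changes are read across libraries. Sums and shares over genes describe counts and are not read as relative amounts of transcript. Total counts ranged from 9873894 (TSA) to 11024227 (senescent control). No group had a second library, so no spread between replicates and no p-value could be had. Each comparison describes 2 libraries, and each ratio is followed in parentheses by its 95% exact counting interval, which covers counting error only. A gene is called higher or lower where that interval excludes a ratio of 1. Of stromal markers all 7 were detected, with summed levels of 2310 to 2650 CPM, mostly from Itgb1 and Thy1. Cd44 had 147 to 168 CPM, and Pdgfra and Pdgfrb had 25.7 to 46.9 CPM. Nt5e had 10.1 to 16.4 CPM, and Eng had only 1.62 to 2.19 CPM. Endothelial, red cell, adipocyte and osteoblast markers each summed to at most 1.62 CPM in a library, with Pecam1, Hbb, Sp7 and Ibsp at 0 counts throughout. Blood lineage markers summed to 9.24, 9.38, 5.81 and 5.14 CPM in the TSA + phenamil, TSA, senescent control and young control libraries, nearly all from Cd14, with Adgre1 and Cd79a at 0 counts. The part of these markers in the results was not tested.

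The set as a whole was expressed in every library and shifted little. The 42 members summed to 726 CPM in the TSA + phenamil library, 757 with TSA, 714 in the senescent control and 692 in the young control. The median ratio of a member's highest to its lowest library was 1.303, against 1.334 over all genes tested. A dispersion index, the variance over the 4 libraries divided by that expected from counting, had a median of 1.73 for the members. Over the 9851 genes within the same range of total counts its median was 2.86, although those genes had a higher median total (642 against 455.5 counts). The index exceeded 2 for 18 members (42.9%), against 63.3% of those genes. In bulk RNA, fewer cells in S phase and less RNA per cell cannot be told apart.

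**Figure D3:**
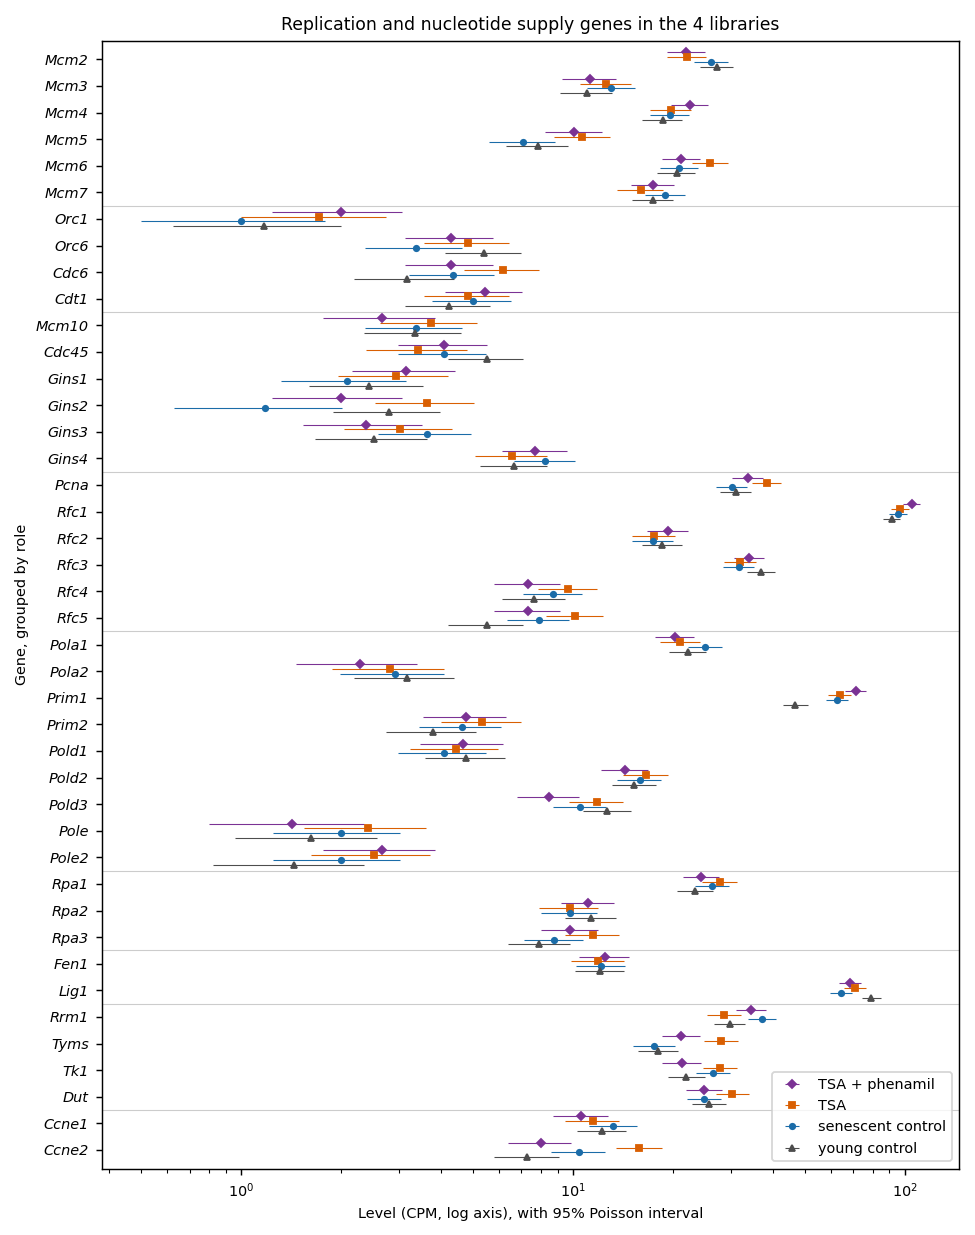
Level of each member (CPM, log axis) in the 4 libraries with 95% Poisson intervals, grouped by role from the MCM helicase at the top to the E cyclins at the bottom. For most genes the 4 intervals overlap; Prim1, Tyms, Gins2 and Ccne2 show the clearest separation between libraries.

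TSA plus phenamil against TSA alone is the pair that differs by phenamil as labelled. The members called lower with both compounds were cyclin E2, the S phase enzymes of thymidine nucleotide supply and a few fork components. Most fork genes were called neither. These were 5 of 6 genes each in the MCM helicase, helicase activation, and clamp and clamp loader groups. In the polymerase and primase group 7 of 9 were neither. Ccne2 was at 0.505 (0.383 to 0.663) times the TSA level, Tyms at 0.758 (0.632 to 0.907), Tk1 at 0.767 (0.640 to 0.918) and Dut at 0.822 (0.694 to 0.973). Gins2 at 0.551 (0.306 to 0.970), Pold3 at 0.719 (0.539 to 0.955), Rfc5 at 0.720 (0.528 to 0.978) and Mcm6 at 0.820 (0.682 to 0.985) were lower as well. Higher were Rrm1 at 1.205 (1.03 to 1.41) and Prim1 at 1.12 (1.003 to 1.24). In all, 8 of the 42 members were lower, a share near the 17.1% of all genes lower by the same rule. Another 2 were higher, beside 16.6% of all genes, and 32 were neither. The share of members called either way, 23.8%, was under the 33.7% of all genes. Here and in the comparisons below, such shares also depend on depth. The members had a median total of 455.5 counts, against 769 for all genes, and fewer counts give wider intervals. The members' median log2 ratio was -0.14 and that of all genes 0.001, with 26 members below a ratio of 1 and 16 above it. Past 1.5-fold by the ratio alone were 3 members (Ccne2, Gins2 and Pole), against 13.9% of all genes. The call of Prim1 ended under scaling by total counts and under thinning to the smallest total.

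TSA plus phenamil against the senescent control left the set nearly level. Relative to the senescent control, Mcm5, a helicase subunit, stood at 1.43 (1.05 to 1.93), the primase gene Prim1 at 1.14 (1.02 to 1.26) and the clamp loader gene Rfc1 at 1.101 (1.01 to 1.199). Pola1, the catalytic subunit of polymerase alpha, was at 0.809 (0.674 to 0.971) and Tk1 at 0.805 (0.673 to 0.961). These 3 higher and 2 lower members stood beside 37 that were neither, and 15.8% of all genes were higher and 15.9% lower. Members called either way made up 11.9%, against 31.6% of all genes, and the median log2 ratio was 0.01, against -0.001 for all genes. The 4 members past 1.5-fold, against 12.0% of all genes, were Orc1, Gins1, Gins2 and Gins3, each with an interval that included 1. With all libraries thinned to the smallest total, the calls of Mcm5, Rfc1 and Pola1 ended.

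TSA alone against the senescent control gave mainly higher values. Relative to the senescent control, Gins2 stood at 3.07 (1.59 to 6.32), Tyms at 1.59 (1.32 to 1.92), Ccne2 at 1.52 (1.18 to 1.95) and Mcm5 at 1.51 (1.12 to 2.05). Pcna at 1.27 (1.097 to 1.48), Mcm6 at 1.24 (1.03 to 1.49) and Dut at 1.22 (1.03 to 1.44) followed. Rrm1, the large subunit of ribonucleotide reductase, moved the other way, at 0.768 (0.658 to 0.896). These 7 higher and 1 lower members are to be read beside 15.7% of all genes higher and 14.7% lower. The share called either way was 19.0%, against 30.5% of all genes. The median log2 ratio was 0.10, against -0.003 for all genes, and 29 members lay above a ratio of 1 and 13 below it. Past 1.5-fold were 5 members, against 12.4% of all genes: Gins2, Tyms, Ccne2, Mcm5 and Orc1. This comparison and TSA plus phenamil over TSA share the single TSA library. Ccne2, Tyms, Dut, Gins2 and Mcm6, higher here and lower there, therefore rest on the same TSA counts in both.

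The senescent control against the young control showed no common decline of replication genes. Prim1 was at 1.34 (1.19 to 1.503), Rfc5 at 1.44 (1.02 to 2.03), Ccne2 at 1.43 (1.07 to 1.92), Rrm1 at 1.248 (1.08 to 1.45) and Tk1 at 1.205 (1.01 to 1.43) times the young level. Lower were Gins2 at 0.422 (0.203 to 0.831), the origin recognition gene Orc6 at 0.621 (0.401 to 0.951), the DNA ligase gene Lig1 at 0.811 (0.734 to 0.897) and Rfc3 at 0.857 (0.741 to 0.991). That made 5 higher, 4 lower and 33 neither, beside 18.1% of all genes higher and 16.7% lower. Members called either way were 21.4%, against 34.9% of all genes. The median log2 ratio was 0.06, against 0.005 for all genes, and 2 members (Gins2 and Orc6) were past 1.5-fold, against 13.7% of all genes. Thinned likewise, the calls of Orc6, Rfc5 and Tk1 ended. In the side comparison of TSA over the young control, 10 members were higher and 3 lower. That was 31.0% called either way, against 41.2% of all genes. With both compounds over the young control, 2 were higher and 3 lower, or 11.9%, against 31.8% of all genes. These side comparisons differ in senescence as well as in treatment.

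**Figure D4:**
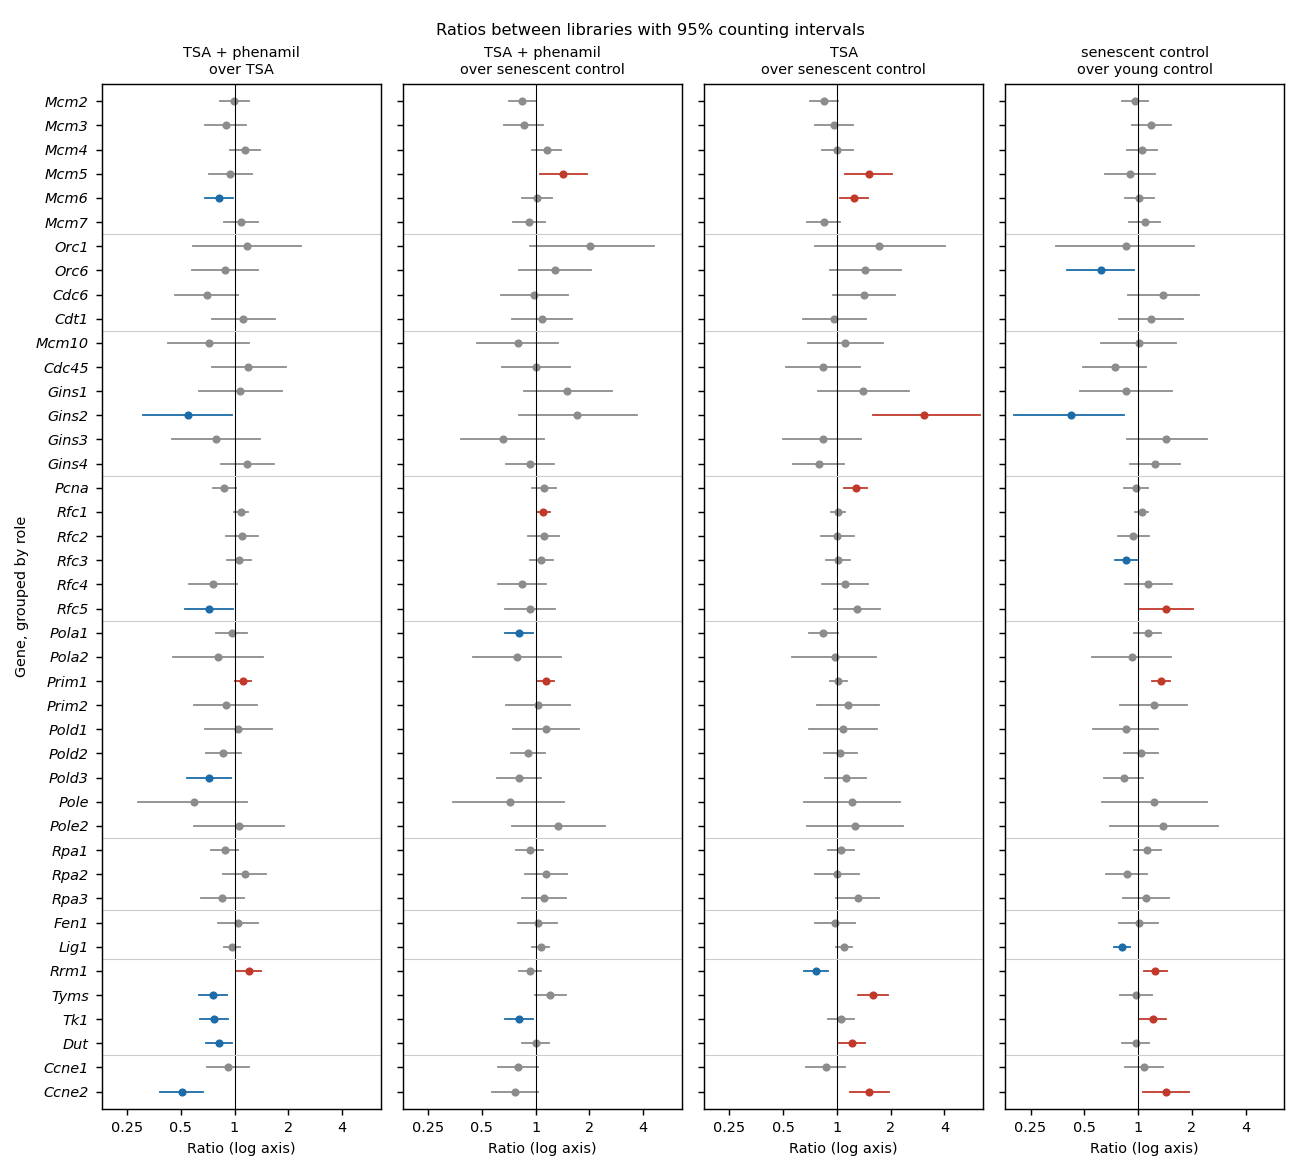
Ratio of each member between 2 libraries (log axis) with its 95% counting interval, in the 4 comparisons; red marks intervals above 1, blue below 1 and grey those that include 1. Of 42 members, 32, 37, 34 and 33 are grey from left to right.

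**Figure D5:**
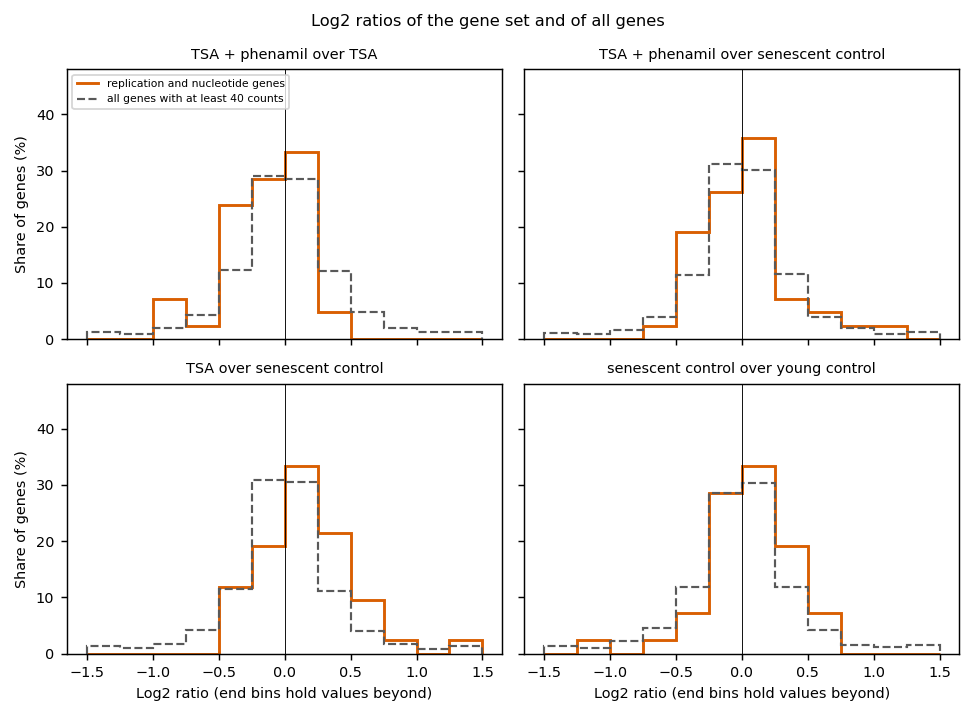
Share of genes (%) by log2 ratio in steps of 0.25 for the 42 members (solid line) and all 12228 genes with at least 40 counts (dashed line). The members' medians were -0.14, 0.01, 0.10 and 0.06, in reading order of the panels.

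The MCM helicase, which unwinds the parental DNA, was steady in sum. Its 6 subunit genes totalled 105 CPM in the TSA + phenamil library, 107 with TSA, 106 in the senescent control and 103 in the young control. Within that sum Mcm5 (Entrez 291885, chromosome 19) had 10.1 and 10.7 CPM in the TSA + phenamil and TSA libraries, against 7.08 in the senescent control and 7.84 in the young control. Against the young control, the ratio was 1.36 (1.02 to 1.83) with TSA, while with both compounds the interval included 1, at 1.29 (0.960 to 1.73). Mcm2 had 22.0 and 22.1 CPM in the TSA + phenamil and TSA libraries, against 26.1 in the senescent control and 27.1 in the young control, the opposite order. Its ratio to the young control was 0.811 (0.680 to 0.966) with both compounds and 0.814 (0.680 to 0.972) with TSA, while against the senescent control both intervals included 1. Mcm5 took 9.65% (7.97 to 11.6) of the 6 genes' counts with both compounds, 9.98% (8.24 to 11.9) with TSA, 6.70% (5.33 to 8.29) in the senescent control and 7.64% (6.17 to 9.34) in the young control. Such shares carry exact binomial intervals, do not depend on the scaling of libraries, and are not the stoichiometry of the complex. Mcm6 had 25.9 CPM with TSA, and 21.2, 20.9 and 20.6 CPM with both compounds, in the senescent control and in the young control. Mcm3, Mcm4 and Mcm7 were within counting error in the 4 comparisons.

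Licensing factors had few counts. Cdc6, which loads the helicase with the origin recognition complex, had 4.29 CPM with both compounds, 6.15 with TSA, 4.36 in the senescent control and 3.16 in the young control. Its TSA level was 1.95 (1.27 to 3.04) times that of the young control, but the interval against the senescent control included 1 at 1.41 (0.951 to 2.10). Orc6 (Entrez 291927) had 4.29, 4.84, 3.36 and 5.41 CPM in the same order, lowest in the senescent control. Orc1, the largest subunit of the origin recognition complex, rested on 62 counts in all and had 1.9999 CPM with both compounds, 1.71 with TSA, 0.999 in the senescent control and 1.17 in the young control. Cdt1, the other loading factor, stood at 5.43, 4.84, 4.99 and 4.24 CPM, with every interval including 1. The 4 genes summed to 1.28 (1.02 to 1.602) of the senescent control with TSA and 1.17 (0.931 to 1.46) with both compounds.

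Among the genes that activate the helicase, Gins2 (Entrez 292058, chromosome 19) varied most. This GINS subunit had 21 counts (1.9999 CPM) in the TSA + phenamil library, 36 (3.63 CPM) in the TSA library, 13 (1.18 CPM) in the senescent control and 31 (2.79 CPM) in the young control. Its end lies inside the span of Gse1 in the RefSeq gene table, and whether counting used strand is not given in any source at hand, so its reads may not all be its own. The other GINS genes, Gins1, Gins3 and Gins4, had intervals that included 1 in the 4 comparisons. Gins1 was at 1.40 (0.782 to 2.53) in TSA over the senescent control, an interval that overlaps that of Gins2, and the difference between them was not tested. Gins2 took 13.1% (8.31 to 19.4) of the complex's counts with both compounds, 22.5% (16.3 to 29.8) with TSA, 7.78% (4.21 to 12.9) in the senescent control and 19.4% (13.6 to 26.4) in the young control. Cdc45, the helicase cofactor, had 4.09, 3.43, 4.09 and 5.499 CPM in that order and was lower with TSA than in the young control, at 0.623 (0.397 to 0.963). Mcm10, which acts at the same step, had 2.67 to 3.73 CPM, with no interval excluding 1.

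The sliding clamp gene Pcna (Entrez 25737) was highest in the TSA library, with 33.6, 38.4, 30.1 and 30.9 CPM in the TSA + phenamil, TSA, senescent control and young control libraries. With TSA it was also above the young control, at 1.24 (1.07 to 1.44). Of the clamp loader genes, Rfc5 had 7.33, 10.2, 7.899 and 5.499 CPM in the same order, and the TSA level was 1.85 (1.33 to 2.59) times the young one. Rfc1, the large subunit, had 105, 96.8, 95.5 and 91.3 CPM, a spread of 1.15-fold between its highest and lowest library. Rfc2 and Rfc4 had intervals that included 1 in the 4 comparisons.

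Prim1 (Entrez 246327, chromosome 7), the catalytic subunit of the primase that starts each new strand, had the highest dispersion index of the members, 18.9. It had 71.2 CPM with both compounds, 63.8 with TSA and 62.6 in the senescent control, against 46.8 in the young control. The 3 senescent libraries, all set against the same single young library, had ratios of 1.52 (1.36 to 1.71), 1.36 (1.21 to 1.53) and 1.34 (1.19 to 1.503). Prim2, its partner subunit, had 4.76, 5.34, 4.63 and 3.79 CPM in the same order of libraries, and its interval for senescent against young control included 1. Pold3, an accessory subunit of polymerase delta, had 8.48 CPM with both compounds, against 11.8, 10.5 and 12.7 CPM with TSA, in the senescent control and in the young control. Pola1 stood at 20.3, 21.1, 25.1 and 22.2 CPM in that order. Of the 9 polymerase and primase genes, Pola2, Prim2, Pold1, Pold2, Pole and Pole2 had no interval excluding 1 in the 4 comparisons. Pole2, like Gins2, ends inside the span of another gene, Klhdc1.

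Single-strand binding protein genes were level: Rpa1 ranged over 23.3 to 27.7 CPM, Rpa2 over 9.78 to 11.4 and Rpa3 over 7.93 to 11.5, with no call in the 4 comparisons. Only against the young control, a side comparison, was Rpa3 with TSA called, at 1.45 (1.09 to 1.94). Fen1, the nuclease that trims Okazaki fragments, was the steadiest member, with 12.5, 11.9, 12.2 and 12.1 CPM with both compounds, with TSA, in the senescent control and in the young control. Lig1 (Entrez 81513), which seals those fragments, had 68.5, 70.8 and 64.4 CPM in the 3 senescent libraries in that order, against 79.3 CPM in the young control. Against that same young library the ratios were 0.863 (0.781 to 0.954), 0.892 (0.807 to 0.986) and 0.811 (0.734 to 0.897).

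Genes of deoxynucleotide supply moved in both directions. Tyms (Entrez 29261), which makes thymidylate, had 21.2 CPM with both compounds and 28.0 with TSA, against 17.6 in the senescent control and 18.1 in the young control. Rrm1 (Entrez 685579) had 34.4 CPM with both compounds, 28.5 with TSA, 37.1 in the senescent control and 29.8 in the young control, so that it was lowest in the library where Tyms was highest. Tk1, the thymidine salvage kinase, had 21.3, 27.8, 26.5 and 22.0 CPM in the same order. Dut, which removes dUTP, had 24.9, 30.2, 24.9 and 25.7 CPM, highest with TSA. Of the counts of these 4 genes, Rrm1 took 33.8% (30.9 to 36.7) with both compounds, 24.9% (22.4 to 27.5) with TSA, 35.0% (32.3 to 37.8) in the senescent control and 31.1% (28.4 to 34.0) in the young control. Rrm2, the small reductase subunit that fell below the minimum, had 17, 4, 12 and 3 counts in that order. Its ratio of TSA + phenamil to TSA was 4.01 (1.31 to 16.4), in the same direction as Rrm1, on these few counts. In senescent over young control the ratio of Rrm2 was 4.03 (1.09 to 22.2), also in the direction of Rrm1. In the remaining comparisons of the 4 its interval included 1.

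Ccne2 (Entrez 362485, chromosome 5) had the largest difference with over 200 counts. It had 84 counts (7.999 CPM) with both compounds and 157 (15.8 CPM) with TSA, against 115 (10.4 CPM) in the senescent control and 81 (7.30 CPM) in the young control. The TSA level was 2.17 (1.65 to 2.87) times that of the young control. Ccne1, its paralog, had 10.6, 11.5, 13.3 and 12.3 CPM in the same order, with every interval in the 4 comparisons including 1. Ccne2 therefore took 57.9% (51.8 to 63.9) of the E cyclin counts with TSA. The share was 43.1% (36.0 to 50.3) with both compounds, 44.1% (37.9 to 50.3) in the senescent control and 37.3% (30.9 to 44.1) in the young control. The span of Ccne2 overlaps that of Ints8 in the RefSeq gene table. Whether its end lies inside that span was not determined, so its reads may not all be its own.

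The TSA library was the highest of the 4 for 17 members (40.5%), whereas it was the highest for 28.0% of all genes. It was the lowest for 6 members (14.3%), against 28.6% of all genes. The TSA + phenamil, senescent control and young control libraries were the highest for 9, 7 and 9 members (21.4%, 16.7% and 21.4%). Over all genes these shares were 22.9%, 21.6% and 27.5%. The same libraries were the lowest for 12, 11 and 13 members (28.6%, 26.2% and 31.0%), against 22.7%, 20.6% and 28.1% of all genes. The pair TSA + phenamil over TSA and the pair senescent control over young control share no library. Across the 42 members, 19 (45.2%) moved the same way in both, and Pearson's r of the log2 ratios was -0.02. Across 12222 genes 40.4% did, with r = -0.19. Genes of 1 library are not independent replicates, so these values describe the libraries.

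Other genes of the pathway, in lists chosen with earlier results of these data known, are set beside the members here. Of 36 further nucleotide synthesis genes, 11 were lower and 2 higher in TSA + phenamil over TSA, beside 17.1% and 16.6% of all genes, with a median log2 ratio of -0.12. In TSA over the senescent control, which shares the TSA library, 10 were higher and 5 lower, beside 15.7% and 14.7% of all genes. The median there was 0.08. The nucleoside transporter gene Slc29a1 had 24.4 CPM with both compounds, 56.8 with TSA, 42.7 in the senescent control and 29.7 in the young control. Its ratio of TSA + phenamil to TSA was 0.430 (0.369 to 0.499). Dhodh, the mitochondrial enzyme of pyrimidine synthesis, had 6.05 CPM with TSA and 2.91 in the senescent control, a ratio of 2.08 (1.33 to 3.30), and it was at 0.424 (0.271 to 0.649) in senescent against young control.

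Among 30 G1/S regulators, cyclin D1 stood out. Ccnd1 had 911 CPM with both compounds, 1472 with TSA, 1322 in the senescent control and 970 in the young control, an order shared with Ccne2 except that Ccne2 was lowest in the young control. Its ratio was 0.619 (0.603 to 0.635) in TSA + phenamil over TSA and 1.36 (1.33 to 1.398) in senescent over young control. As a list, 5 regulators were higher and 6 lower in TSA + phenamil over TSA, beside 16.6% and 17.1% of all genes. In TSA over the senescent control 6 were higher and 4 lower, beside 15.7% and 14.7%. E2f1, picked after its values were seen, had a ratio of 1.39 (1.098 to 1.76) in TSA + phenamil over TSA and 1.395 (1.099 to 1.78) in senescent over young control, so it did not follow Ccne2 or Tyms in the first of these. The cell cycle inhibitor gene Cdkn1a had 203, 225, 235 and 237 CPM with both compounds, with TSA, in the senescent control and in the young control.

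Of 16 further fork and Okazaki genes, 4 were higher and 2 lower in TSA + phenamil over TSA, beside 16.6% and 17.1% of all genes. In senescent over young control 0 were higher and 4 lower, beside 18.1% and 16.7% of all genes, with a median log2 ratio of -0.21. Rnaseh2b, a subunit of the ribonuclease that removes ribonucleotides from DNA, was at 1.66 (1.38 to 1.997) with both compounds and 1.39 (1.14 to 1.69) with TSA against the senescent control. Of 14 further licensing and firing genes, 2 were higher and 2 lower in TSA over the senescent control, beside 15.7% and 14.7% of all genes. Among them Gmnn, the inhibitor of CDT1, was at 1.86 (1.24 to 2.82). The further polymerase and chromatin assembly list had 3 of 14 higher and 2 lower in that comparison, beside the same shares of all genes. The translesion polymerase gene Polk was at 2.47 (1.54 to 4.04).

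Of 25 mitosis genes, 2 were higher and 6 lower in TSA over the senescent control, beside 15.7% and 14.7% of all genes, with a median log2 ratio of -0.21, whereas the members' median was 0.10. The difference of these medians was not tested. In TSA + phenamil over TSA, which shares the TSA library, the counts were the other way round. There 7 were higher and 3 lower, beside 16.6% and 17.1% of all genes. Mki67, the proliferation marker, picked like Cdkn1a after its values were seen, had 27.8 CPM with TSA and 35.4 in the senescent control, a ratio of 0.786 (0.671 to 0.919), while Aurkb, a kinase of chromosome segregation, was at 2.78 (1.91 to 4.11). In senescent over young control 3 mitosis genes were higher, 2 lower and 20 neither, beside 18.1% of all genes higher and 16.7% lower. Mitosis genes, like the members, thus showed no common decline there.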

How the data were processed

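Per the labels' protocols, TRIzol was used to extract RNA, Lexogen's QuantSeq FWD kit (which tags the 3′ ends of mRNA) to prepare it, and a NextSeq instrument to read 100 bp from one end. The submitters' processing notes name mRatBN7.2 as build and, with no role or order, HTSeq 2.0.2 and STAR 2.7.10b. Annotation, strand setting and handling of duplicates are not given in any source at hand. The deposited table holds raw counts per gene, per the file headers. The deposited log2 values, normalized by the authors, equalled log2 of the scaled count plus 1 within 0.000582, so they served as an alternative only. Counts were scaled by TMM with edgeR 4.0.16 in R 4.3.3, over genes with at least 40 counts in total. Ratios carry exact conditional binomial (Clopper-Pearson) 95% intervals, computed with scipy 1.17.1. No test of the conditions was possible with 1 library per group. No molecular identifiers are mentioned, and PCR copies of a molecule are not independent, so intervals cover counting error only.

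The interval rule was run on simulated Poisson counts, where it called 3.77% to 4.51% of unchanged genes. Those counts hold counting error only, as the interval itself assumes. That run therefore cannot show how the rule behaves with variation between cultures or PCR copies. Members, lists and rules were chosen with earlier results of these data known. Values in every library were to be printed for members with an interval excluding 1 and a ratio of at least 1.25 in 1 of the 4 comparisons, and for Pcna, Mcm2, Cdc6, Rrm2, Tyms and Ccne1, and other members by range. Further members are given in full where they show a role, picked after their values were seen. Of each pathway list, the gene whose interval bound nearest to 1 lay furthest from it could be named. Alternatives were scaling by total counts, by size factors of DESeq2 1.42.0 or by TMM leaving out mitochondrial and ribosomal protein genes, other count minimums, an assumed variation between cultures, thinning, and the log2 values. Motif searches used RefSeq promoters of GRCr8, a different build from that of the counts, matched by Entrez ID. No coordinates were converted.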

Additional observations from a re-analysis of the deposited data

How the results depend on the processing

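Scaling by DESeq2 size factors, by TMM without mitochondrial and ribosomal protein genes, or by TMM without a filter moved no count of members by over 1.5 times and lost none of the 32 calls of members. Under total counts, higher members in TSA + phenamil over TSA numbered 1 where 2 were reported, and Prim1, Rfc1 and Tk1 lost 1 call each (29 kept). With a minimum of 200 counts 29 members were left, and 2 were lower in senescent over young control where 4 were reported, because Orc6 and Gins2 fell out. Thinning to the smallest total kept 25 of 32 calls. It ended those of Prim1 in TSA + phenamil over TSA, of Mcm5, Rfc1 and Pola1 in TSA + phenamil over the senescent control, and of Orc6, Rfc5 and Tk1 in senescent over young control, with 1 higher member in TSA + phenamil over TSA and 3 in senescent over young control. The deposited log2 values gave medians of -0.12, 0.01, 0.08 and 0.06, in the order of the report. Without Gins2 and Pole2, an alternative added after the data were seen, the counts stayed within 1.5 times. Ccne2, whose span overlaps that of Ints8, was kept in that alternative. No alternative reversed the direction of any of these 32 calls, which cover the 4 comparisons. Most alternatives could hardly do so. The minimum of 200 counts, the removal of Gins2 and Pole2 and the assumed variation left each ratio unchanged. The other scalings of the counts moved log2 ratios by at most 0.0365. Ratios of either TSA library to the young control were not recomputed.

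Variation between cultures was not measured. With an assumed coefficient of variation of 0.1, 6 of 32 calls remained: Ccne2 lower in TSA + phenamil over TSA (1 lower, 0 higher), Gins2, Tyms, Ccne2 and Mcm5 higher in TSA over the senescent control (4 higher, 0 lower), and Gins2 lower in senescent over young control (1 lower, 0 higher), with 0 in either direction for TSA + phenamil over the senescent control. With 0.2, the 3 left were Ccne2 lower in the first, Gins2 higher in the second (1 higher, 0 lower) and Gins2 lower in the last (1 lower, 0 higher). Both Gins2 calls rest on the same 13 counts in the senescent control, for a gene whose end lies inside the span of Gse1. Orc1, Pole and Pole2 had under 100 counts in all, which limits what this depth can detect for them. No paired analysis was possible because each group has 1 library.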

Other observations

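Members with and without an E2F-type promoter match are set side by side here, with no test made. In TSA over the senescent control the median log2 ratio was 0.08 for the 16 members with a match and 0.07 for the 20 without one, and 3 and 4 members of these groups were called. In TSA + phenamil over TSA the medians were -0.05 with a match and -0.18 without one, and 3 and 6 members were called. In TSA + phenamil over the senescent control the medians were 0.06 and 0.001, with 2 and 3 members called. In senescent over young control they were -0.01 and 0.03, with 2 and 6 called. Of the members called in any of the 4 comparisons, Mcm5, Mcm6, Rfc3, Pola1, Pold3, Lig1 and Tyms had a match. Orc6, Gins2, Pcna, Rfc1, Rfc5, Prim1, Rrm1, Tk1 and Dut had none in the window searched, and Ccne2 had no promoter in the table.

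Polk and Dhodh, which were named above for their ratios to the senescent control, were each lowest in that library. That low is therefore part of why they were named and is not a separate result. Polk had 5.62 CPM with both compounds and 6.05 with TSA, against 2.45 in the senescent control and 5.68 in the young control. Dhodh had 6.57 and 6.05 CPM with both compounds and with TSA, against 2.91 and 6.85 CPM in the senescent and young controls. Gins2, also called against that library, was lowest there too. These lows rest on the same single library, which was the lowest for 20.6% of all genes.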
